A study of Mus musculus with 60 samples.

Results

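Transcripts of 10 genes that mark contractile smooth muscle cells and pericytes were followed in mouse ventricles: Myh11, Tagln, Cnn1, Smtn, Pdgfrb, Rgs5, Abcc9, Notch3, Cspg4 and Mcam. They were the rows of the count table whose Ensembl identifier maps to one of these symbols, 10 of 53700 gene rows, and all 10 were among the 18119 genes that passed the filter on low counts. Polyadenylated RNA of both ventricles was sequenced from 60 male C57BL/6 hearts, 1 heart per library, in 12 sets of 5, for 2 genotypes and 6 times (ZT0, ZT4, ZT8, ZT12, ZT16 and ZT20, in hours from lights on in an equal light and dark cycle). The dnOGAh mice carried TRE-EGFP-dnOGA, a doxycycline-inducible dominant negative O-GlcNAcase made from a rat splice variant, together with αMHC-rtTA, whose promoter confines induction to cardiomyocytes. CON littermates carried αMHC-rtTA alone. Both genotypes received doxycycline by injection and diet from 10 weeks of age for 2 weeks and were collected at 12 weeks, so that the drug and the activator were common to both and the responder transgene differed.

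Vascular smooth muscle cells wrap arteries and arterioles and contract through smooth muscle myosin sliding on actin, with calponin, smoothelin and transgelin bound to the filaments. Pericytes sit on capillaries within the endothelial basement membrane, are recruited by platelet-derived growth factor acting on its β receptor, depend on Notch signalling, and express ATP-sensitive potassium channels. Some of these genes are also used by other cells, among them Abcc9 in cardiomyocytes and Mcam in endothelium. In RNA of whole ventricle, fewer cells of a type and less RNA per cell cannot be told apart.

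Total gene counts per library ranged from 9162859 to 82938039 (median 18012099 in CON and 27845513.5 in dnOGAh hearts), and mitochondrial transcripts took a median of 30.7% of counts in CON and 17.2% in dnOGAh. Of the 60 libraries, 3 stood apart. CON ZT4 replicate 4 had 77.6% mitochondrial counts, and replicate 4 of dnOGAh at ZT4 had 66.0%. In the library labelled dnOGAh ZT12 replicate 3, O-GlcNAcase (listed as Mgea5) was at 70.1 counts per 1000000 gene counts (CPM), inside the CON range of 46.7 to 72.2, whereas the other 29 dnOGAh libraries had 182.3 to 836.8. Some of the results that rest on these 3 libraries are also given without them.

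Levels are given as CPM scaled by the trimmed mean of M values (TMM), and genotype differences as log2 fold changes of dnOGAh over CON with their SE, from edgeR's quasi-likelihood test with Benjamini-Hochberg adjustment over all 18119 genes. Over the day, 4 of the 10 markers rose in dnOGAh hearts (Tagln, Cnn1, Cspg4 and Mcam), 5 fell (Abcc9, Smtn, Rgs5, Myh11 and Notch3) and Pdgfrb did not pass an adjusted p of 0.05. With the same test 70.7% of all genes passed, 38.8% higher and 31.9% lower, so that 9 called of 10 markers stood against a background in which most genes were called. The median log2 fold change was -0.10 over the 10 markers and 0.06 over all genes, and the median of its absolute value was 0.68 and 0.47. The markers ran from -1.65 for Abcc9 to 1.16 for Tagln. Without the 3 libraries all 10 passed, 5 in each direction, against 74.2% of all genes. Total counts in place of TMM moved the median of all genes from 0.06 to 0.54, so that values with that scaling are read relative to this median.

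**Figure D1:**
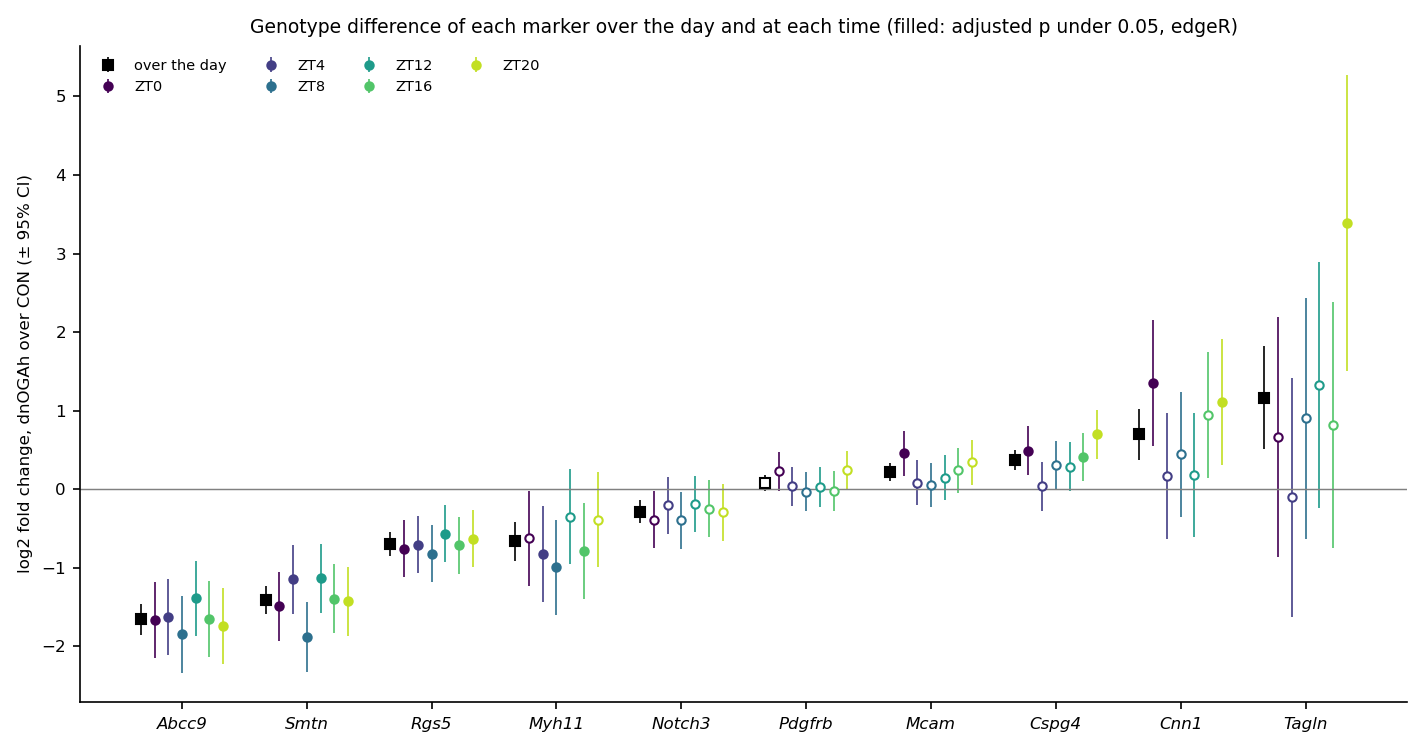
Genotype difference of each marker, as the log2 fold change of dnOGAh over CON with its 95% confidence interval, over the day and at each of the 6 times, filled where the adjusted p was under 0.05. Abcc9, Smtn and Rgs5 passed and were lower at all 6 times, and Pdgfrb and Notch3 passed at none.

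Per kilobase of exon, Rgs5 was the most abundant of the 10 in CON hearts, with a median of 83.5 CPM per kilobase, followed by Smtn (53.0), Abcc9 (19.2), Pdgfrb (13.0), Mcam (10.2), Myh11 (4.48), Notch3 (4.47), Cspg4 (2.26), Cnn1 (2.00) and Tagln (0.126). In dnOGAh hearts the medians per kilobase were 53.8 for Rgs5, 20.2 for Smtn, 13.3 for Pdgfrb, 11.9 for Mcam, 6.34 for Abcc9, 3.65 for Cnn1, 3.59 for Notch3, 2.89 for Cspg4, 2.76 for Myh11 and 0.220 for Tagln. By these medians Abcc9 stood above Pdgfrb and Mcam in CON and below both in dnOGAh, and Myh11 above Cnn1 in CON and below it in dnOGAh. Exon lengths came from the GENCODE vM21 annotation, and the ranges over hearts overlapped between all neighbours in these orders except Smtn and Abcc9 and Cnn1 and Tagln in CON, and Myh11 and Tagln in dnOGAh. The ranges of Cnn1 and Myh11 overlapped in both genotypes, as did those of Abcc9 with Pdgfrb and Mcam.

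Myh11 (ENSMUSG00000018830, chromosome 16), the smooth muscle myosin heavy chain, was lower in dnOGAh hearts. Its level was 18.4 to 87.3 CPM in CON hearts (median 34.1, n = 30) and 10.3 to 46.7 CPM in dnOGAh hearts (median 21.0, n = 30). The ranges overlapped, with 13 of 30 dnOGAh hearts below the lowest CON heart and 4 above the CON median, and the highest heart of each genotype was the ZT4 library with the high mitochondrial share. The log2 fold change was -0.66 ± 0.13 (adjusted p = 6.94e-06). It was -0.18 with total counts in place of TMM and then did not pass (adjusted p = 0.144), while relative to the median of all genes it was -0.73 with total counts and -0.72 with TMM.

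At single times Myh11 passed at ZT4 (-0.82 ± 0.31, adjusted p = 0.0364), ZT8 (-0.99 ± 0.31, adjusted p = 0.00676) and ZT16 (-0.78 ± 0.31, adjusted p = 0.0376). At ZT8 the 5 CON hearts had 23.2, 51.8, 32.0, 35.6 and 31.1 CPM and the 5 dnOGAh hearts 15.3, 16.7, 21.8, 20.1 and 13.3 CPM. Every dnOGAh heart lay below every CON heart at that time, as was so for 19.4% of all genes. The ZT4 call was lost without CON ZT4 replicate 4 (-0.56, adjusted p = 0.155) or without replicate 1 or 3 of every group (adjusted p = 0.111 and 0.163), the ZT8 call without replicate 2 (adjusted p = 0.0516) and the ZT16 call without replicate 2, 3 or 5 (adjusted p = 0.118, 0.104 and 0.0911) or without a filter on low counts (adjusted p = 0.0516). With total counts no single time passed (-0.31, -0.47 and -0.28 at ZT4, ZT8 and ZT16).

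Cnn1 (ENSMUSG00000001349, chromosome 9) encodes calponin, an actin-binding protein that inhibits the myosin ATPase in smooth muscle, and it changed in the opposite direction. CON hearts had 3.08 to 18.1 CPM (median 5.48) and dnOGAh hearts 5.62 to 25.2 CPM (median 9.99). All 30 dnOGAh hearts lay above the CON median and 3 above the highest CON heart. Cnn1 rose by a log2 fold change of 0.70 ± 0.17 (adjusted p = 0.00019). Within a library, where scaling cancels, the log2 ratio of Cnn1 to Myh11 CPM had a median of -2.59 in CON (-3.58 to -1.55) and -1.15 in dnOGAh (-2.77 to 1.12), and 23 of 30 dnOGAh hearts exceeded the highest CON heart.

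CON hearts were uneven for Cnn1. At ZT12 they had 3.27, 18.1, 5.95, 17.3 and 3.47 CPM, and replicates 2 and 4, which were high, were also the highest in Myh11 at that time (52.9 and 55.8 CPM). Cnn1 passed at ZT0 (1.35 ± 0.41, adjusted p = 0.00596) and ZT20 (1.11 ± 0.41, adjusted p = 0.0254). At ZT0 the dnOGAh hearts had 14.4, 13.6, 7.42, 15.6 and 22.4 CPM against 10.3, 4.04, 4.84, 6.30 and 3.71 CPM in CON, where 1 CON heart lay above the lowest dnOGAh heart. The ZT0 call was lost without replicate 5 (adjusted p = 0.0856) and the ZT20 call without replicate 2, 4 or 5 (adjusted p = 0.0544, 0.173 and 0.0733).

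Smtn (ENSMUSG00000020439, chromosome 11), smoothelin, is an actin-associated protein of contractile smooth muscle and was lower in dnOGAh hearts at every time. CON hearts had 169.1 to 295.1 CPM (median 232.3) and dnOGAh hearts 46.9 to 229.9 CPM (median 88.4). The highest dnOGAh value was that of the library labelled dnOGAh ZT12 replicate 3, and the other 29 lay below the lowest CON heart, CON ZT4 replicate 4. Without that dnOGAh library the genotypes did not overlap, as was so for 0.740% of all genes lower in dnOGAh. Smtn fell by 1.41 on the log2 scale (SE 0.092, adjusted p = 4.17e-20).

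The log2 fold change of Smtn passed at all 6 times and ran from -1.88 ± 0.23 at ZT8 to -1.13 ± 0.22 at ZT12. The ZT12 value includes the library labelled dnOGAh ZT12 replicate 3, at 229.9 CPM beside a median of 91.5 CPM in its set. Without that library Smtn also passed at all 6 times. At ZT8 the CON hearts had 295.1, 283.4, 253.5, 281.1 and 288.0 CPM and the dnOGAh hearts 53.6, 61.6, 119.1, 100.9 and 46.9 CPM. Smtn, Rgs5 and Abcc9 were the 3 of 10 markers that passed at all 6 times, as did 22.5% of all genes. In GENCODE vM21, 16.3% of the exon bases of Smtn are shared with Gm11946 on the opposite strand, which had 0 to 41 counts per library.

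Tagln (ENSMUSG00000032085, chromosome 9) encodes transgelin, an actin-binding protein that is usually abundant in smooth muscle, and it was near 0 here. CON hearts had 0 to 26 counts (0 to 2.19 CPM, median 0.25) with 8 of 30 libraries at 0, and dnOGAh hearts 4 to 43 counts (0.14 to 1.64 CPM, median 0.44). Summed over 30 libraries this was 164 counts in CON and 509 in dnOGAh. The dnOGAh libraries were deeper (median 27845513.5 gene counts, against 18012099 in CON), and the mean was 0.31 CPM in CON and 0.53 CPM in dnOGAh. The fitted log2 fold change was 1.16 ± 0.33 (adjusted p = 0.00174).

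The only time at which Tagln passed was ZT20 (adjusted p = 0.0036), where the CON libraries held 0, 0, 1, 3 and 0 counts and the dnOGAh libraries 21, 38, 4, 43 and 8 counts. The mean level of Tagln at that time was 0.059 CPM in CON and 0.64 CPM in dnOGAh. In GENCODE vM21, 62.4% of its exon bases are shared with Gm48529 and 5.43% with Pcsk7, both on the opposite strand. Whether reads were counted by strand is not given in the sources used here. Without strand, reads on bases shared between genes would be ambiguous and left out of the gene counts. The part of this in the low level of Tagln was not tested. The level and fold change of Tagln are therefore uncertain.

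Abcc9 (ENSMUSG00000030249, chromosome 6) had the largest absolute log2 fold change of the 10. It encodes a sulfonylurea receptor, the regulatory subunit of ATP-sensitive potassium channels, whose pore is Kcnj8 in mural cells and mainly Kcnj11 in cardiomyocytes. CON hearts had 61.7 to 229.9 CPM (median 160.8) and dnOGAh hearts 28.3 to 88.3 CPM (median 53.1). The lowest CON heart was CON ZT4 replicate 4, and the other 29 CON hearts lay above the highest dnOGAh heart, which was again the library labelled dnOGAh ZT12 replicate 3. Abcc9 fell by 1.65 on the log2 scale (SE 0.10, adjusted p = 2.66e-21) and passed at all 6 times, from -1.85 ± 0.25 at ZT8 to -1.39 ± 0.24 at ZT12. The ZT12 value includes that dnOGAh library, at 88.3 CPM beside a median of 57.3 CPM in its set. Without it Abcc9 also passed at all 6 times.

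Both pore subunits fell as well, Kcnj11 by 1.32 on the log2 scale (SE 0.093) and Kcnj8 by 0.80 (SE 0.076). The log2 ratio of Abcc9 to Kcnj8 CPM within a library had a median of 1.65 in CON (1.154 to 2.06) and 0.81 in dnOGAh (0.27 to 1.150), so that all 30 dnOGAh hearts lay below the lowest CON heart, the nearest by a narrow margin.

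Abcc9 and Smtn showed the 2 largest falls, and the 250 bases before their start sites are therefore shown, from RefSeq on GRCm38.p6, 5′ to 3′ on the strand of the gene. They lie at chr6:142702275-142702524 (Abcc9) and chr11:3539293-3539542 (Smtn), both on the minus strand. Capitals mark the letters of the MCAT element bound by TEAD factors (GGAATG) and of the core bound by RBPJ, the DNA-binding partner of Notch (TGGGAA), each searched on both strands.
Abcc9: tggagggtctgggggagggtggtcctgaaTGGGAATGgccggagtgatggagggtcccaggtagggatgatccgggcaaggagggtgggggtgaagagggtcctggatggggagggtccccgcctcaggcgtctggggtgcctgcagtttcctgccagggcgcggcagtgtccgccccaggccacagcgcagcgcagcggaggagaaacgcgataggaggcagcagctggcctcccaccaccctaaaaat
Smtn: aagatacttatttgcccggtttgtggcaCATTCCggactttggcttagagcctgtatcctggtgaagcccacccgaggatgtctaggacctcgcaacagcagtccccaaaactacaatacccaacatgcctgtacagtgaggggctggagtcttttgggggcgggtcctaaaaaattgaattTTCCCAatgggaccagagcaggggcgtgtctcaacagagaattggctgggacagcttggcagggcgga
The MCAT letters stood at -219 to -214 in Abcc9 and, on the opposite strand, at -222 to -217 in Smtn. The RBPJ core stood at -221 to -216 in Abcc9, where it overlaps the MCAT letters, and on the opposite strand at -68 to -63 in Smtn. Of the 7 markers whose RefSeq window was used (Abcc9, Smtn, Rgs5, Cnn1, Mcam, Cspg4 and Notch3), 2 held each motif. Of 32851 windows of the same length 12.6% held MCAT and 21.6% the RBPJ core. Windows on the chromosome of Pdgfrb were left out for the markers but not from the 32851. Bases just after the start were found in a GENCODE vM21 transcript of the same gene for all but Notch3. The start used for Notch3 is therefore uncertain, and its window stays in these counts. The CArG box of SRF, the E-box CACGTG and the letters AGGTCA read by ROR and REV-ERB receptors were in 0 of the 7 windows and in 1.47%, 6.02% and 14.0% of all windows. A match of letters is a description and not a measured site.

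Rgs5 (ENSMUSG00000026678, chromosome 1) encodes a GTPase-activating regulator of G protein signalling and is widely used to mark pericytes. CON hearts had 232.6 to 481.8 CPM (median 379.4) and dnOGAh hearts 139.6 to 435.2 CPM (median 244.6). The ranges overlapped, with 13 of 30 dnOGAh hearts below the lowest CON heart, CON ZT4 replicate 4, and 1 above the CON median. Rgs5 fell by 0.70 on the log2 scale (SE 0.075, adjusted p = 4.68e-12). With total counts in place of TMM the value was -0.23 (adjusted p = 0.0374) and no single time passed, while relative to the median of all genes it was -0.78, against -0.76 with TMM.

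With TMM, Rgs5 passed at all 6 times, from -0.82 ± 0.19 at ZT8 to -0.57 ± 0.18 at ZT12. The ZT12 value includes the library labelled dnOGAh ZT12 replicate 3, at 314.0 CPM beside a median of 260.4 CPM in its set. Without that library Rgs5 also passed at all 6 times. The ZT12 call was lost without replicate 1 (-0.45, adjusted p = 0.136) or replicate 2 (-0.56, adjusted p = 0.0549). At ZT20 the dnOGAh hearts had 207.2, 167.3, 253.8, 183.7 and 435.2 CPM against 394.9, 330.6, 373.8, 411.1 and 418.9 CPM in CON. At that time 4 dnOGAh hearts lay below every CON heart and replicate 5 above every CON heart.

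Pdgfrb (ENSMUSG00000024620, chromosome 18) encodes the receptor through which platelet-derived growth factor recruits mural cells. CON hearts had 44.2 to 82.7 CPM (median 71.2) and dnOGAh hearts 45.8 to 89.7 CPM (median 72.9). The lowest heart of each genotype was one of the 3 libraries, CON ZT4 replicate 4 and the library labelled dnOGAh ZT12 replicate 3. The log2 fold change was 0.08 ± 0.052 (95% confidence interval -0.02 to 0.18, adjusted p = 0.161), and no single time passed. Without the 3 libraries it was 0.11 ± 0.036 and passed (adjusted p = 0.00542), beside a median of 0.07 over all genes.

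The log2 ratios of other markers to this receptor shifted by different amounts. Their medians went from -0.95 in CON to -1.31 in dnOGAh for Notch3, from -1.34 to -1.15 for Cspg4 and from -0.93 to -0.87 for Mcam. For Notch3, 10 of 30 dnOGAh hearts lay below the lowest CON heart. For Cspg4, 0 lay outside the CON range, and for Mcam 6 lay above it and 2 below it. The log2 ratio of Rgs5 to Pdgfrb CPM went from a median of 2.45 in CON (2.25 to 3.11) to 1.66 in dnOGAh (1.02 to 2.78), with 28 of 30 dnOGAh hearts below the lowest CON heart. Pdgfra, the related receptor of fibroblasts, rose by a log2 fold change of 0.91 ± 0.072, and the log2 ratio of Pdgfrb to Pdgfra went from a median of 1.49 (1.03 to 1.80) to 0.66 (0.13 to 1.57), with 29 of 30 dnOGAh hearts below the lowest CON heart.

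Notch3 (ENSMUSG00000038146, chromosome 17), the Notch receptor of mural cells, had 17.9 to 45.5 CPM in CON (median 36.2) and 12.9 to 44.1 CPM in dnOGAh (median 29.0). The ranges overlapped nearly throughout, yet 3 of 30 dnOGAh hearts exceeded the CON median. Notch3 fell by 0.29 on the log2 scale (SE 0.075, adjusted p = 0.000693) and passed at no single time. Its sign depended on scaling: with total counts in place of TMM it was 0.20 (adjusted p = 0.0787). Relative to the median of all genes Notch3 was at -0.34 with that scaling, against -0.35 with TMM.

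Cspg4 (ENSMUSG00000032911, chromosome 9), the NG2 proteoglycan on the surface of pericytes and of glial precursors, was higher in dnOGAh hearts. CON hearts had 18.6 to 39.8 CPM (median 27.0) and dnOGAh hearts 21.7 to 50.7 CPM (median 34.4), with 28 of 30 dnOGAh hearts above the CON median and 9 above the highest CON heart. That CON heart was CON ZT4 replicate 4, and the lowest dnOGAh heart was the library labelled dnOGAh ZT12 replicate 3. Cspg4 rose by a log2 fold change of 0.37 ± 0.065 (adjusted p = 1.03e-06). It passed at ZT0 (0.49 ± 0.16), ZT16 (0.41 ± 0.16) and ZT20 (0.70 ± 0.16), and without the 3 libraries at 5 times.

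At ZT20 the dnOGAh hearts had 45.76, 41.03, 34.21, 39.39 and 37.98 CPM of Cspg4 against 25.06, 19.29, 31.91, 21.74 and 24.48 CPM in CON. The groups did not overlap, as was so for 14.7% of all genes in that direction. The ZT0 call was lost without replicate 5 (adjusted p = 0.145) and the ZT16 call without replicate 2, 3 or 5 (adjusted p = 0.096, 0.0765 and 0.0548).

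Mcam (ENSMUSG00000032135, chromosome 9), an adhesion molecule of mural and endothelial cells, had 25.9 to 52.6 CPM in CON (median 34.3) and 26.3 to 55.4 CPM in dnOGAh (median 39.7), lowest in CON ZT4 replicate 4 and in the library labelled dnOGAh ZT12 replicate 3. Mcam rose by a log2 fold change of 0.22 ± 0.059 (adjusted p = 0.000873), with 25 of 30 dnOGAh hearts above the CON median. ZT0 was the only time that passed (0.46 ± 0.15, adjusted p = 0.00871). There the dnOGAh hearts had 45.1, 37.9, 50.4, 55.4 and 55.1 CPM against 37.3, 34.2, 32.5, 37.2 and 36.8 CPM in CON, without overlap, as was so for 20.8% of all genes in that direction.

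**Figure D2:**
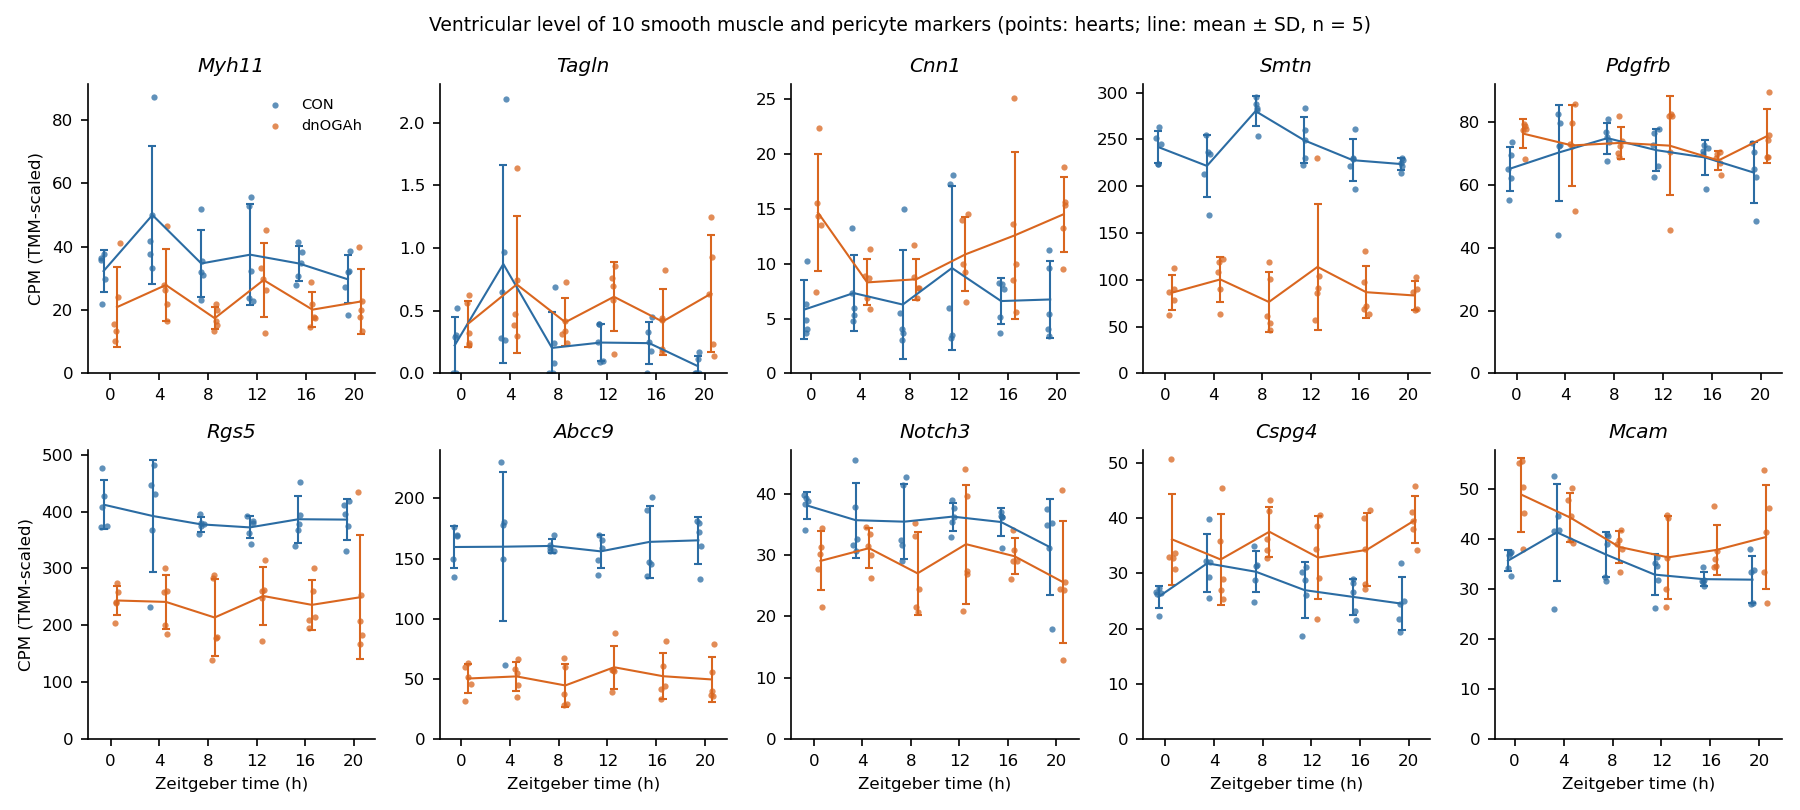
Level of each marker by zeitgeber time. Points are the CPM of 60 hearts and lines the mean ± SD of 5 hearts, by genotype; nearly all dnOGAh hearts lie below the CON hearts for Smtn and Abcc9, and the genotypes overlap for Pdgfrb.

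Counted over single times, 6 markers passed at ZT0 and ZT20, 5 at ZT16, 4 at ZT4 and ZT8 and 3 at ZT12, when 42.5%, 40.0%, 40.8%, 32.7%, 46.1% and 31.8% of all genes passed, in the order ZT0, ZT20, ZT16, ZT4, ZT8 and ZT12. Of the 32 marker and time tests that did not pass, 18 changed sign under at least 1 alternative setting. The genotype difference did not pass a test of change with time for any marker: 0 of 10 in edgeR, with 0 unadjusted p under 0.05, and 0 in limma-voom and DESeq2. That test called 0% of all genes in edgeR. Calls at some times and not at others are therefore not shown to be differences between times.

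To determine whether the markers varied over the day, 24 h oscillations were tested with JTK_CYCLE in each genotype. At q under 0.05, 0 of 10 markers oscillated in CON (4 had an unadjusted p under 0.05) and 0 in dnOGAh (1 had), while 2.08% of all genes oscillated in CON and 0.171% in dnOGAh. The lowest q in CON was that of Mcam (0.143), with a cosinor amplitude of 0.17 ± 0.053 on the log2 scale and a peak at 4.59 h. Without the 3 libraries Mcam passed in CON (q = 0.0199). In dnOGAh hearts the amplitude of Mcam was 0.20 ± 0.064 with a peak at 1.08 h (unadjusted p = 0.0345, q = 1). A cosinor F test in limma also called 0 markers in either genotype.

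The other CON markers with an unadjusted JTK p under 0.05 were Smtn (amplitude 0.11 ± 0.041, q = 0.299), Cspg4 (0.18 ± 0.056, q = 0.345) and Pdgfrb (0.11 ± 0.051, q = 0.376). The median amplitude over all genes was 0.16 in CON and 0.12 in dnOGAh. A test of any difference among the 6 times called 0 markers in CON and 0 in dnOGAh in edgeR, limma-voom and DESeq2, with 1 unadjusted p under 0.05 in edgeR in each (Tagln in CON, adjusted p = 0.309, and Mcam in dnOGAh, adjusted p = 0.562), against 1.18% and 0.375% of all genes in edgeR. The 24 h component of the genotype difference passed for 0 of 10 markers in all 3 tools (1 unadjusted p under 0.05 in edgeR, Cspg4 at 0.0454) and for 0.0166% of all genes in edgeR. Among other contractile and pericyte genes, Synpo2 and Steap4 oscillated in CON, and of the Notch genes Hes1 did, and these were named after their values were seen.

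The counts of called genes in the following lists stand beside the 38.8% of all genes that were higher and 31.9% that were lower, and the list medians beside 0.06 over all genes. With total counts 76.3% of all genes were called in either direction, with a median of 0.54. With that scaling the median was 0.59 for regulators, 0.11 for other pericyte genes, 0.42 for PDGF and 0.08 for Notch genes. It was -0.10 for angiopoietin genes, 0.58 for relatives of the markers, -0.18 for endothelial and 0.48 for glial markers. Of 11 further contractile genes 3 rose, 5 fell and 3 did not pass (median log2 fold change -0.36), a share called close to that of all genes. Without replicate 2, 3 rose and 3 fell (median -0.16). Synpo2, which bundles actin, fell by 0.57 on the log2 scale (SE 0.077), Lmod1, an actin nucleator of smooth muscle, by 0.49 (SE 0.18) and Ppp1r14a, an inhibitor of myosin phosphatase, by 0.42 (SE 0.16). Cald1, caldesmon, rose by 0.55 (SE 0.13). Acta2, smooth muscle actin, was at 121.9 ± 38.0 CPM (SD, n = 30) in CON and 117.3 ± 23.5 CPM in dnOGAh and did not pass (log2 fold change -0.05, adjusted p = 0.62). With total counts in place of TMM, 4 of the 11 rose and 0 fell, with a median of 0.11 beside 0.54 over all genes.

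Of 10 regulators of smooth muscle transcription, 5 rose, 4 fell and 1 did not pass, with a median of 0.10 that is close to that of all genes. Csrp2, a LIM protein partner of SRF, rose by 1.43 on the log2 scale (SE 0.10), Mrtfa, an actin-sensing SRF coactivator, by 0.95 (SE 0.090) and Tbx18, a transcription factor of mural cells and epicardium, by 0.67 (SE 0.13). Fhl2, a LIM protein abundant in cardiomyocytes, fell by 1.19 (SE 0.087). With total counts 7 rose and 1 fell.

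The other pericyte genes mostly fell: of 10, 8 fell, 1 rose and 1 did not pass (median -0.36). Vtn, vitronectin, fell by 0.99 on the log2 scale (SE 0.10), Cox4i2, a cytochrome c oxidase subunit, by 0.94 (SE 0.11) and Kcnj8 by 0.80. Anpep, an aminopeptidase also made by myeloid cells, rose by 1.94 (SE 0.12). Their summed level was 133.6 to 263.3 CPM in CON and 122.6 to 253.3 CPM in dnOGAh. With total counts 3 fell and 2 rose.

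Of 5 genes of PDGF signalling, 2 rose (the ligand Pdgfc by 1.03 on the log2 scale, and Pdgfra), 2 fell (the ligands Pdgfd by 0.85 and Pdgfa by 0.18) and 1 did not pass, and with total counts 4 rose and 1 fell. Pdgfa passed narrowly in edgeR (adjusted p = 0.0375). The count of PDGF genes that fell changed under 8 alternative settings and stayed the same under 10. Of 13 Notch pathway genes 3 rose, 7 fell and 3 did not pass (median -0.40). The receptor Notch2 rose by 0.98 and Rbpj by 0.85, whereas the ligands Jag2 and Dll4 fell by 0.87 and 0.85. With total counts 5 rose and 3 fell. Of 4 angiopoietin pathway genes 3 fell, Angpt1, a ligand made by mural cells, by 0.96 and the endothelial receptors Tie1 and Tek by 0.78 and 0.34, and 1 did not pass. With total counts 1 rose and 2 fell.

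Among 14 tested relatives of the markers 7 rose, 6 fell and 1 did not pass (median 0.09). Rgs16, a relative of Rgs5, rose by 1.95 on the log2 scale (SE 0.18). Kcnj11, Abcc8, the other sulfonylurea receptor, and Smtnl2, a relative of smoothelin, fell by 1.32, 1.22 and 1.21 (SE 0.093, 0.093 and 0.091). With total counts 8 rose and 4 fell.

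**Figure D3:**
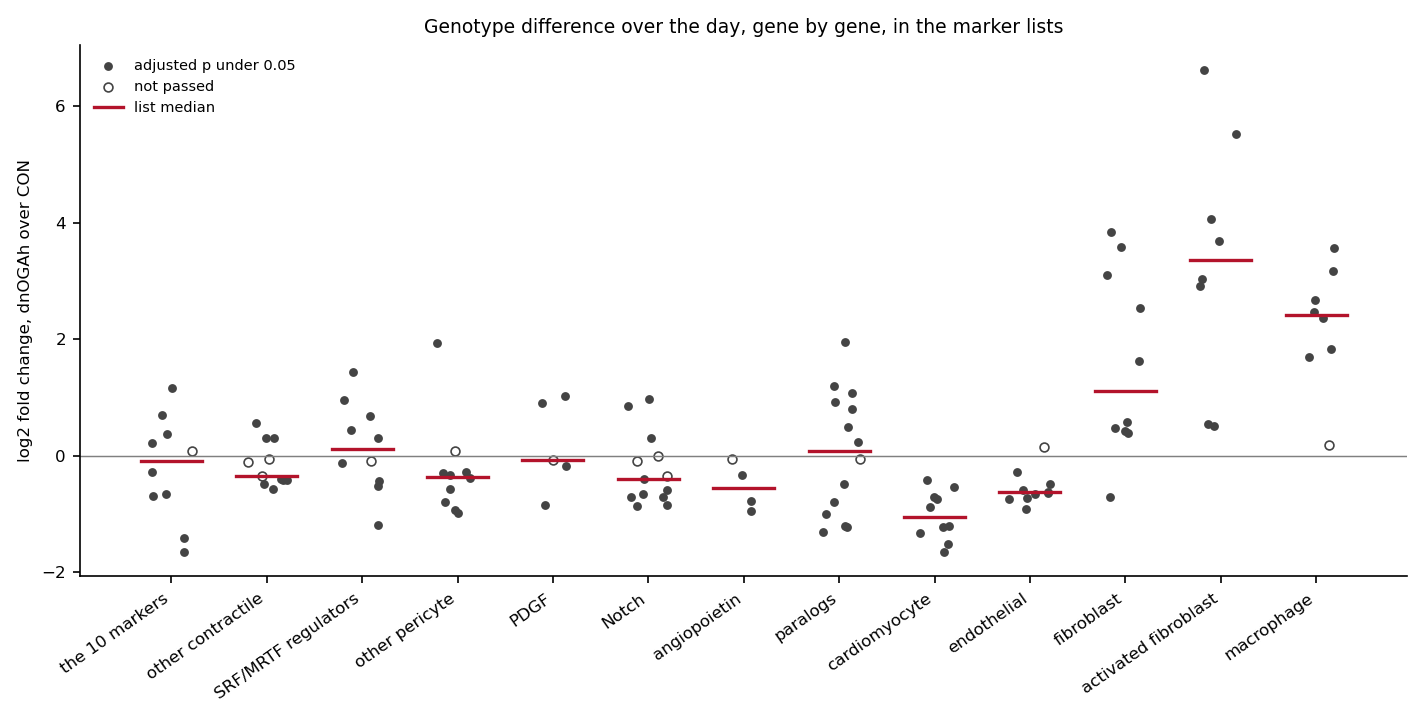
Genotype difference over the day, gene by gene, in each marker list, as the log2 fold change of dnOGAh over CON with the median of the list as a red line. The 10 markers lie on both sides of 0, with a median of -0.10, beside -1.05 for cardiomyocyte and 1.10 for fibroblast markers.

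Markers of other cells also differed between genotypes in these libraries. All 10 cardiomyocyte markers fell (median -1.05, led by Pln, Myl2, Tnni3 and Myh6), with a summed level of 40405 to 84762 CPM in CON and 22160 to 106018 CPM in dnOGAh. Of 10 endothelial markers 9 fell and 1 did not pass (median -0.64, led by Kdr, Cldn5, Cdh5 and Erg), at 837.5 to 2513 CPM in CON and 451.6 to 2046 CPM in dnOGAh, and with total counts 6 fell and 2 rose. Of 10 fibroblast markers 9 rose and 1 fell (median 1.10, led by Col3a1, Col1a1, Col1a2 and Mfap5), at 2221 to 3177 and 3204 to 10112 CPM. All 8 activated fibroblast markers rose (median 3.35, led by Tnc, Cthrc1, Postn and Ltbp2), at 53.0 to 132.2 and 134.3 to 1935 CPM. Of 8 macrophage markers 7 rose and 1 did not pass (median 2.41, led by Cd68, Adgre1, C1qb and C1qa), at 200.1 to 405.4 and 427.9 to 2556 CPM.

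Of other possible sources, 1 of 6 glial markers rose and 1 fell (4 rose and 0 fell with total counts), 1 of 5 epicardial and 2 of 3 atrial markers fell, all 5 erythroid markers fell, and of 3 tested skeletal muscle markers 2 rose and 1 fell. The part of these cells in the differences of the 10 markers was not tested.

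To see which genes each marker varied with from heart to heart, log2 CPM was taken as the deviation from the mean of its genotype and time over 60 libraries. These values share a library and its depth. Myh11 was most like Lmod1 (r = 0.83), Tpm2 (0.81) and Mrvi1 (0.77), and Cnn1 was most like Acta2 (0.77), Myl9 (0.72) and Comp (0.61). Abcc9 was most like Aldh6a1 (0.95), Hadhb (0.94) and Suclg2 (0.94), which encode mitochondrial enzymes. Smtn was most like Selenbp1 (0.94), Rab3a (0.92) and Ldhd (0.92). Rgs5 was most like Txlnb (0.91), Atp2a2 (0.90), the sarcoplasmic reticulum calcium pump, and Ldb3 (0.90), a Z-disc protein.

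For the other markers, Notch3 was most like Usp19 (r = 0.84), Lrp5 (0.83) and Zc3h7b (0.82), Cspg4 like Map1a (0.73), Cul7 (0.73) and Actn1 (0.72), Mcam like Itsn1 (0.68) and Cul4a (0.67), and Tagln like Rps16-ps2 (0.63), Rpl13a (0.61) and Ifitm2 (0.60). Pdgfrb was most like Fads3 (0.83), Usp22 (0.83) and Gata4 (0.82), and these dropped to 0.60, 0.56 and 0.46 without the 3 libraries.

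Against the mean of 7 marker lists and 2 library measures, 90 relations were computed, with p-values from 100000 permutations within genotype and time, adjusted over the 90. Myh11 followed the other contractile genes (Pearson's r = 0.87, Spearman's rho = 0.86, raw permutation p = 1e-05 for both, the smallest that could be given, adjusted p = 0.00011 and 0.00018), as did Cnn1 (r = 0.70, rho = 0.70, with the same permutation p-values). Without the 2 farthest hearts r was 0.86 for Myh11 and 0.69 for Cnn1. Within genotypes r was 0.91 in CON and 0.86 in dnOGAh for Myh11 and 0.91 and 0.39 for Cnn1. Myh11 also followed the endothelial markers (r = 0.69, rho = 0.71, permutation p = 1e-05 for both, adjusted p = 0.00011 and 0.00018), with r of 0.66 without the 2 farthest hearts and 0.63 within CON and 0.72 within dnOGAh. It ran opposite to the macrophage markers (r = -0.52, rho = -0.44, permutation p = 0.00046 and 0.00115, adjusted p = 0.003 and 0.0069), with r of -0.53 without the 2 farthest hearts. Within CON and dnOGAh r was -0.29 and -0.62.

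Smtn, Abcc9 and Rgs5 followed the cardiomyocyte markers more closely than the contractile genes, a difference that was not tested. For Smtn r was 0.89 and rho 0.72 (permutation p = 1e-05 and 2e-05, adjusted p = 0.00011 and 0.00026). For Abcc9 r was 0.80 and rho 0.66 (permutation p = 1e-05 and 3e-05, adjusted p = 0.00011 and 0.00034), and for Rgs5 r was 0.73 and rho 0.67 (permutation p = 1e-05 for both, adjusted p = 0.00011 and 0.00018). Without the 2 farthest hearts r was 0.82, 0.83 and 0.75 in the same order. Within CON and dnOGAh r was 0.43 and 0.94 for Smtn, 0.74 and 0.85 for Abcc9, and 0.71 and 0.75 for Rgs5. With the contractile genes r was 0.32, 0.01 and 0.19, and none of these 3 passed (permutation adjusted p = 0.0542, 0.975 and 0.413).

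The endothelial markers gave r of 0.50, 0.17 and 0.20 with Smtn, Abcc9 and Rgs5 over 60 libraries and 0.71, 0.70 and 0.81 without the 3 libraries, where the cardiomyocyte markers gave 0.86, 0.80 and 0.74. For Rgs5 the endothelial value was then the higher. With all 60 libraries the endothelial r had opposite signs in the 2 genotypes. Within CON and dnOGAh it was -0.58 and 0.69 for Smtn, -0.77 and 0.54 for Abcc9, and -0.66 and 0.47 for Rgs5. The pooled values therefore do not describe a relation common to both genotypes. Smtn also ran opposite to the macrophage markers (r = -0.69, rho = -0.64, permutation p = 2e-05 and 1e-05, adjusted p = 0.0002 and 0.00018) and to the activated fibroblast markers (r = -0.62, rho = -0.52, permutation p = 8e-05 and 0.00011, adjusted p = 0.0006 and 0.0009), with r of -0.62 and -0.47 without the 2 farthest hearts. Within CON and dnOGAh r was 0.01 and -0.76 with the macrophage markers, and -0.19 and -0.73 with the activated fibroblast markers. Both relations were therefore weak within CON, and the difference between genotypes was not tested.

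Rgs5 and Abcc9 also followed the other pericyte genes (r = 0.77 and 0.67, rho = 0.60 and 0.56, permutation p of r = 1e-05 and 8e-05 and of rho = 7e-05 and 0.00013, adjusted p of r = 0.00011 and 0.0006 and of rho = 0.00063 and 0.00097), with r of 0.72 and 0.60 without the 2 farthest hearts. Cspg4 ran opposite to the cardiomyocyte markers (r = -0.64, rho = -0.62, permutation p = 1e-05 and 2e-05, adjusted p = 0.00011 and 0.00026), with r of -0.58 without the 2 farthest hearts. Within CON and dnOGAh r was -0.35 and -0.77.

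**Figure D4:**
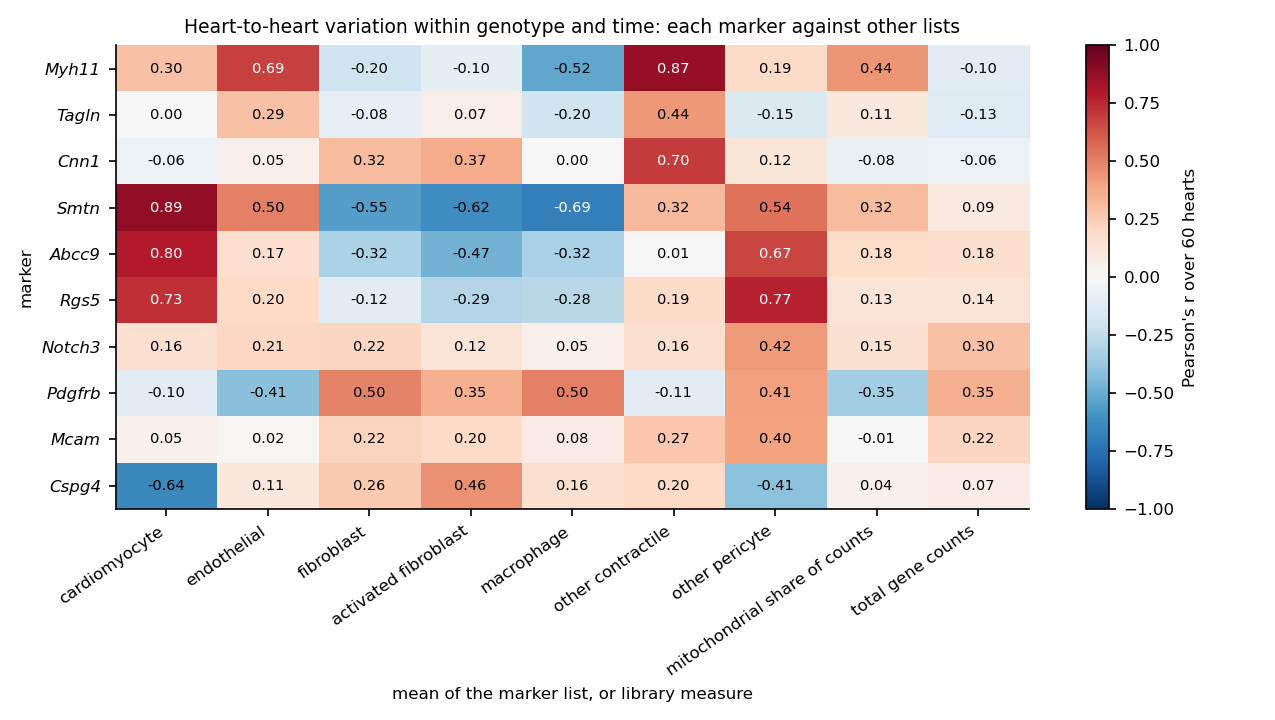
Heart-to-heart variation within genotype and time, as Pearson's r over 60 hearts between each marker (rows) and the mean of a marker list or a library measure (columns). Myh11 and Cnn1 had r of 0.87 and 0.70 with the other contractile genes, and Smtn, Abcc9 and Rgs5 had 0.89, 0.80 and 0.73 with cardiomyocyte genes.

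The mitochondrial share of counts moved with some markers. Over 60 libraries its highest r was with Myh11 (r = 0.44, rho = 0.33, permutation p = 0.00138 and 0.0175, adjusted p = 0.00828 and 0.0564), with r of 0.30 without the 2 farthest hearts and 0.25 without the 3 libraries. By rho it was more closely related to Abcc9 (0.43, permutation p = 0.00435, adjusted p = 0.0196) and Rgs5 (0.38, permutation p = 0.0120, adjusted p = 0.0416), and both passed. With Smtn rho was 0.34 and did not pass (permutation adjusted p = 0.079). The r of the mitochondrial share was 0.18 with Abcc9, 0.13 with Rgs5 and 0.32 with Smtn over 60 libraries and 0.82, 0.74 and 0.58 without the 3 libraries. With all 60 libraries this r had opposite signs within CON and dnOGAh. It was -0.54 and 0.50 with Abcc9, -0.49 and 0.34 with Rgs5, and -0.51 and 0.48 with Smtn. The difference between genotypes and the part of the mitochondrial share in the relations above were not tested.

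Among the 45 pairs of markers r ranged from -0.64 to 0.88 (median 0.24), and 14 pairs passed an adjusted p of 0.05 for both r and rho. The share of pairs of other genes that would pass was not computed. Rgs5 and Abcc9 varied together most closely (r = 0.88, rho = 0.90, permutation p = 1e-05 for both, adjusted p = 9e-05 and 0.00015), with 0.83 within CON and 0.92 within dnOGAh. Smtn and Abcc9 had r = 0.74 and rho = 0.71, and Abcc9 and Cspg4, the most opposite pair, r = -0.64 and rho = -0.65, with the same permutation p-values as the first pair. Myh11 and Cnn1 had r = 0.46 and rho = 0.49 (permutation p = 0.00112 and 0.00039, adjusted p = 0.00504 and 0.00251), with 0.78 within CON and 0.12 within dnOGAh, a difference that was not tested. Without the 2 farthest hearts r was 0.87, 0.73, -0.65 and 0.45 for these 4 pairs in turn.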

How the data were processed

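Gene counts were measured in 60 heart libraries. The authors trimmed reads with Trim Galore 0.6.7, aligned them with STAR 2.7.10b to GRCm39 and counted them per gene with HTSeq 2.0.2, per the submitters' processing notes, and deposited raw counts per gene. The annotation release and strand setting are not given in the sources used here. The 5 summary rows that name no gene (reads on no feature took 3.61 to 14.3%) were left out. Multiply aligned and ambiguous reads were not in the gene counts, so genes that share sequence are counted low.

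Genes with at least 10 counts by edgeR's filter were tested with edgeR 4.0.16 in R 4.3.3 (12 groups, TMM, quasi-likelihood) in all 60 libraries. JTK_CYCLE, the study's test for oscillation, was written in Python 3.11.15. Alternatives were limma 3.58.1 (voom), DESeq2 1.42.0, other scalings and filters, library number, a replicate block, and libraries left out. The fits were tested on simulated data. Depth limits low genes such as Tagln. Hearts were taken as replicates as the labels give them. The p-values of the group tests judge differences against the variation between hearts. Those of JTK_CYCLE rest on the rank order of hearts over time, and those of co-variation on permutations within genotype and time.

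The text names the 10 markers, up to 4 genes of each other list with the largest change past the genotype test, and for each marker the 3 genes of at least 5 CPM most like it, of which 1 is not reported here. The markers and lists were chosen with earlier results of these data known. The lists (contractile genes, regulators, other pericyte genes, PDGF, Notch and angiopoietin pathways, relatives, other cell types) were tested gene by gene only.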

Additional observations from a re-analysis of the deposited data

Results flagged for a closer look

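In 10 of 120 sets of 5 hearts (8.33%), 1 heart lay far from the other 4 by Dixon's test at the 95% level, where chance flags about 1 in 20, and 2 of the 10 were in the 3 libraries that stood apart. Smtn was at 229.9 CPM in the library labelled dnOGAh ZT12 replicate 3, against 57.1 to 104.6 in the others. Pdgfrb was at 44.2 CPM in CON ZT4 replicate 4 (others 72.4 to 82.7), 58.8 CPM in CON ZT16 replicate 5 (70.0 to 72.6) and 68.2 CPM in dnOGAh ZT0 replicate 2 (77.5 to 79.5). Cnn1 was at 15.0 CPM in CON ZT8 replicate 2, against 3.08 to 5.56. Notch3 was at 34.2 CPM in CON ZT0 replicate 4 (38.3 to 39.8) and 31.2 CPM in CON ZT16 replicate 4 (36.1 to 36.9). Cspg4 was at 22.2 CPM in CON ZT0 replicate 3 (26.2 to 27.4) and 50.7 CPM in dnOGAh ZT0 replicate 5 (30.8 to 33.6). Mcam was at 46.5 CPM in dnOGAh ZT16 replicate 3, against 34.3 to 37.5.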

How the results depend on the processing

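Over the day 8 to 10 markers passed under every alternative run. With total counts in place of TMM, Notch3 changed sign (0.20, adjusted p = 0.0787) and Myh11 no longer passed, and 62.5% of called markers were higher against 44.4%, with the median of all genes moved to 0.54 and Myh11 at -0.73 relative to it, against -0.72. Pdgfrb passed with that scaling (0.57), with DESeq2 size factors (0.11, adjusted p = 0.0409), in DESeq2 (0.11, adjusted p = 0.0348) and without the 3 libraries. A mean of at least 1 CPM removed Tagln. At single times 28 of 60 tests passed, 24 to 34 under the alternatives and 24 to 29 without 1 replicate. JTK in CON called 1 marker, Mcam, without the 3 libraries and 0 otherwise, and the cause was not tested. Same-numbered hearts of the same time had a median r of 0.03, with 5 of 30 pairs over 0.1 and a highest r of 0.55. Hearts with other numbers in other groups had a median of -0.0013, with 109 of 1320 pairs over 0.1 and a highest of 0.51. CON ZT4 replicate 4 and dnOGAh ZT4 replicate 4, both high in mitochondrial counts, share a number and a time. With the replicate block 9 markers passed over the day and 29 tests at single times.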
